A study of Arabidopsis thaliana with 9 samples.

Results

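The transcriptome described here is that of wild-type Arabidopsis thaliana sepals, the outermost organs of the flower, and it rests on 3 of the 9 RNA-seq libraries of the study. The 3 libraries were chosen by their genotype label, wild type of the Col-0 ecotype; the other libraries come from the mutants gir1-1 and atml1-3, with 3 libraries each, and their levels are not compared here. Per the labels, every library was made from 200 sepals dissected from 50 unopened buds at floral stage 12, the stage just before the flower opens, from plants kept at 23 °C in continuous light. No transgene or treatment is named for the wild type, and all libraries carry one batch label. Each library pools many flowers, and nothing in the labels says that the replicates came from separate plantings, so the spread between them may be partly technical.

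Sepals are leaf-like, green floral organs that enclose the bud. Their identity is set by MADS-box transcription factors, of which APETALA1 (AP1) and the SEPALLATA proteins act in the first whorl, whereas APETALA3 (AP3) with PISTILLATA (PI) specify petals and stamens and AGAMOUS (AG) specifies stamens and carpels. The outer cell layer, the epidermis, is under the control of class IV homeodomain-leucine zipper (HD-ZIP IV) proteins such as ATML1 and PDF2, and in sepals it holds giant cells, ordinary pavement cells and stomata. Giant cells are large because they replace division by endoreduplication, and their formation depends on ATML1 and on the cell cycle inhibitor LGO.

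The 4 marker genes named in advance for this tissue were present in every library. RBCS1A (AT1G67090, chr1:25048158-25049667, minus strand) encodes a small subunit of the carbon-fixing enzyme Rubisco. Its level is given as FPKM, counts set relative to a size factor of the library and to the length of the gene. RBCS1A had FPKM of 7835, 11336 and 7783 in replicates 1, 2 and 3. The sepal identity gene AP1 (AT1G69120, chr1:25982294-25986349, minus strand) had FPKM of 116, 133 and 163. ATML1 (AT4G21750, chr4:11555039-11560771, plus strand) had FPKM of 6.69, 7.25 and 11.4, and its close paralog PDF2 (AT4G04890, chr4:2476390-2482447, minus strand) had 11.1, 13.1 and 15.8. Coordinates are those of the TAIR10.1 assembly. Replicate 3 was the highest library for AP1, ATML1 and PDF2, and replicate 2 for RBCS1A.

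The libraries held 16607356 to 18284627 counts over the 38299 genes of the table. A gene is called on here when its FPKM was at least 1 in each of the 3 libraries, and not detected when it had at most 3 counts in each, a floor that corresponds to 0.171 to 0.182 CPM (counts per library scaled to a common size) for counting error alone. By these rules 15693 genes, 41.0% of all, were on. Among the 27567 protein-coding genes, 15277 or 55.4% were on and 7231 or 26.2% were not detected. These 2 shares are the background for the lists of regulators below. The wild-type libraries differed pairwise by far more than counting error, with chi-square values of 50.3 to 63.2 per degree of freedom over genes, so none was a copy of another.

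The highest transcripts were those of photosynthesis, together with metallothioneins, myrosinases, water channels and a cuticle protein. RBCS1A alone held 1.48% ± 0.28 (SD, n = 3) of all FPKM. The 20 genes of highest mean FPKM held 9.34% ± 0.68, the top 100 held 21.9% ± 0.8 and the top 1000 held 52.8% ± 1.4, and 848 genes were enough to reach 50 percent of the total.

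Rubisco and the enzymes around it led the list. The second gene by mean FPKM was RBCS3B, another small subunit, with 5053, 6605 and 5277. Rubisco activase, RCA, which removes inhibitory sugar phosphates from Rubisco, had 4334, 6101 and 3493. RBCS2B had 1960, 3442 and 1745, and the plastid aldolase of the Calvin cycle, FBA2, had 1364, 2035 and 1175. All of these 4 genes, like RBCS1A, were highest in replicate 2. The 4 Rubisco small subunit genes together held 2.85% ± 0.53 of FPKM, and each of the 4 was highest in replicate 2, against 31.6% of all genes tested. Among genes with a mean CPM of at least 100, that share was 41.1%. RBCS1B was the lowest of the 4 small subunit genes, with FPKM of 261, 368 and 232. RBCS1B, RBCS2B and RBCS3B lie side by side on chromosome 5 and share 12.0% (RBCS1B), 16.5% (RBCS3B) and 16.9% (RBCS2B) of their 50-base words with other genomic sequence, so the way reads were divided among them is uncertain. RBCS1A shares none.

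The 250 bases before the annotated start of RBCS2B are shown because, of the 4 small subunit genes, it was the one whose window held the light-responsive promoter elements searched for, and it had the largest range of log2 CPM among libraries within the family (0.98). The sequence is from chr5:15382072-15382321 of TAIR10.1 (RefSeq), on the minus strand of the chromosome, written 5′ to 3′ along the gene. Capitals mark the G-box CACGTG and the I-box core GATAAG or its reverse complement, both searched on either strand and not overlapping each other.
RBCS2B: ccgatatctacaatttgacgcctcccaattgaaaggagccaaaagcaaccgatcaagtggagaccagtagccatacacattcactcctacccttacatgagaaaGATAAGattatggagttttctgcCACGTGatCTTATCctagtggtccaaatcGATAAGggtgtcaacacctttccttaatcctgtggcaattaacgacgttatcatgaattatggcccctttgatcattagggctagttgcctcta
The G-box begins 123 bases before the annotated start. The I-box cores begin at 146, 115 and 94 bases before it. Of 27437 promoter windows of the same length, 6.49% hold the G-box and 12.3% hold the I-box core. The windows of RBCS1A, RBCS3B and RBCS1B hold neither, which says only that these letters are not in those 250 bases.

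Light capture and electron transport came next. PSBR, a subunit on the lumen side of photosystem II, had FPKM of 3216, 4348 and 3710. PSBO1, the manganese-stabilizing protein of the water-splitting complex, had 1468, 1823 and 1832, and PSAL, a subunit of photosystem I, had 1406, 1570 and 1765. The 26 nuclear genes named as photosystem subunits were all on and held 3.47% ± 0.45 of FPKM. Among the light-harvesting chlorophyll proteins LHCB1.3 was highest, with FPKM of 2772, 2473 and 3770, followed by LHCB4.1 with 1884, 1235 and 1443. LHCA4, LHCB5 and LHCA2 followed with mean FPKM of 1480 ± 257, 1430 ± 141 and 1141 ± 165 (SD, n = 3). Of the 20 light-harvesting genes 19 were on, and 15 of the 19 were highest in replicate 3, against 35.4% of all genes tested. Among genes with a mean CPM of at least 100, that share was 21.8%. LHCB1.3 shares 17.0% of its 50-base words with other sequence, since the LHCB1 copies are nearly identical. LHCB1.5 had no count in any library, but all of its exon bases are overlapped by an annotated gene, and a count of 0 there does not show that it is silent.

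Added together, the nuclear genes of Rubisco, light harvesting, photosystems, the Calvin cycle and photorespiration numbered 74, of which 72 were on, and they held 12.2% ± 1.0 of FPKM and 10 of the 20 highest places. The 24 genes of the Calvin cycle and photorespiration held 3.51% ± 0.61. The 131 genes encoded in the plastid genome held only 0.123% ± 0.019, and the 284 mitochondrial genes 0.202% ± 0.029. Whether the libraries were selected for poly(A) tails is not given in the sources used here, so these organelle values do not rank plastid against nuclear transcripts. The 336 nuclear genes annotated as ribosomal proteins held 2.75% ± 0.13, with none among the 20 highest, and 295 of them were on.

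**Figure D1:**
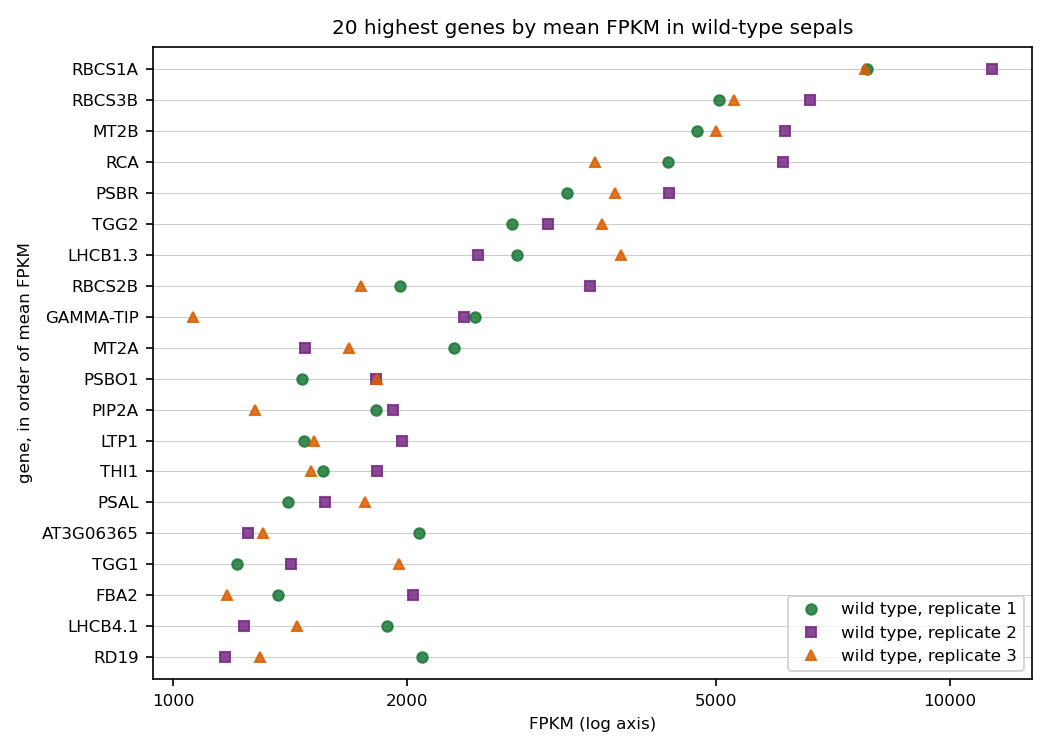
FPKM on a log axis of the 20 genes with the highest mean over the 3 wild-type libraries; each symbol is a library and there is no error bar. RBCS1A stands at 7783 to 11336, and replicate 2 is the highest library for RBCS1A, RBCS3B, RBCS2B, RCA and FBA2.

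Of the 10 other genes among the 20 highest, 6 encode myrosinases, metallothioneins or water channels. TGG2 and TGG1, the myrosinases that hydrolyse glucosinolates when tissue is damaged and that are stored in guard cells and in myrosin cells, had FPKM of 2728, 3037 and 3564 and of 1209, 1420 and 1954. Both were highest in replicate 3 and together they held 0.772% ± 0.168 of FPKM. The metallothioneins MT2B and MT2A, small cysteine-rich proteins that bind copper and zinc, had FPKM of 4727, 6143 and 4996 and of 2301, 1479 and 1683. The 6 metallothionein genes held 1.46% ± 0.08. Of the counts, which are not divided by length, they held 0.571%.

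Water channels held 1.71% ± 0.23 of FPKM over 37 genes. Of these 21 were on and 9 were not detected, against 55.4% and 26.2% of all protein-coding genes. The vacuolar channel GAMMA-TIP had FPKM of 2449, 2369 and 1062, and the plasma membrane channel PIP2A had 1828, 1921 and 1277. Replicate 3 was lowest for both. LTP1, a lipid transfer protein of the epidermis, had FPKM of 1476, 1972 and 1520. It was the only one among the 20 highest of 128 genes annotated as lipid transfer or related inhibitor and seed storage proteins. Of these 128 genes 85 were not detected, against 26.2% of all protein-coding genes.

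THI1, the plastid enzyme that makes the thiazole part of vitamin B1, had FPKM of 1559, 1831 and 1507. RD19, a drought-induced papain-type protease, had 2090, 1168 and 1295. The remaining place went to AT3G06365, annotated only as an uncharacterized RNA, with FPKM of 2076, 1248 and 1306. It lies at chr3:14200215-14204208, after the ribosomal RNA genes AT3G41768 (chr3:14197677-14199484) and AT3G41979 (chr3:14199753-14199916) on the same strand. AT3G41768 was likewise highest in replicate 1, with FPKM of 1092, 740 and 699. Whether AT3G06365 is itself a ribosomal RNA was not tested. It is not among the 11 genes counted as ribosomal RNA, which held 0.193% of FPKM. The value of AT3G06365 is uncertain, because other places in the genome hold 88.6% of its 50-base words.

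**Figure D2:**
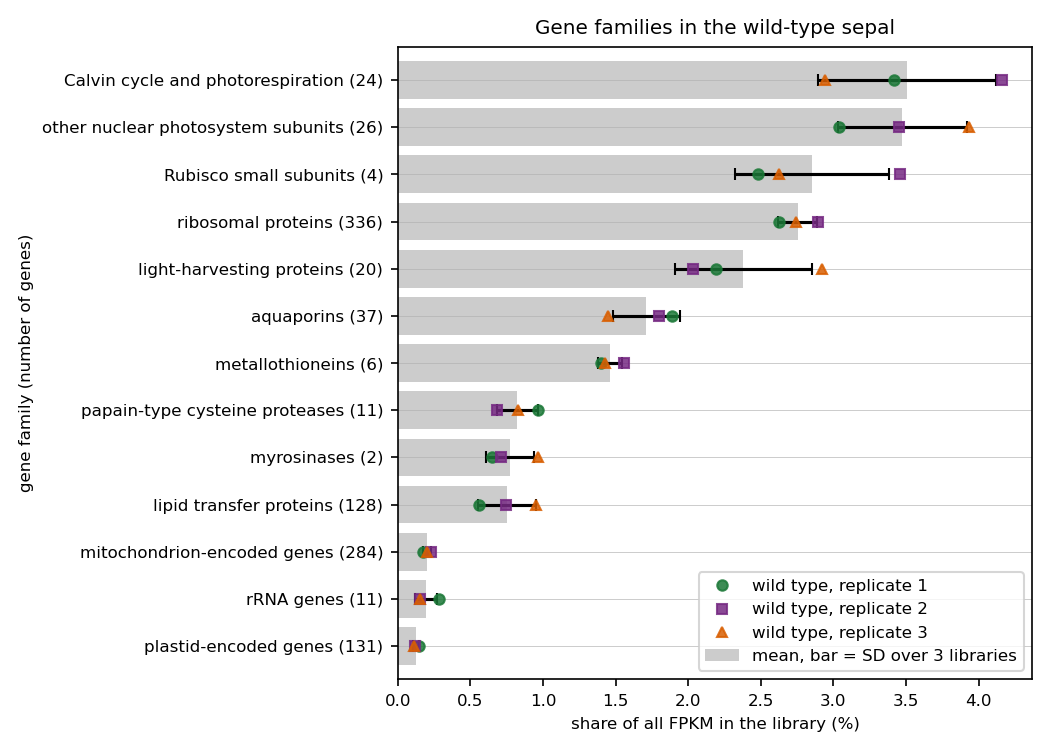
Share of all FPKM in a library held by 13 gene families, with the number of genes in brackets; grey bars are means, black bars the SD over 3 libraries, and symbols the libraries. Calvin cycle and photorespiration genes (3.51%) and photosystem subunits (3.47%) are the largest, and light-harvesting genes are highest in replicate 3 while Rubisco small subunits are highest in replicate 2.

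Among the floral organ identity genes, those of the first whorl were high, AP3 was also on, and PI, AG, STK and SUP were low or absent. SEP3, a SEPALLATA protein that forms complexes with the other MADS factors, had FPKM of 193, 151 and 216 and was the highest of the 16 genes in the list. SEP2 had 73.5, 108 and 140, SEP1 had 69.0, 68.4 and 61.6, and FUL, a relative of AP1, had 46.9, 37.3 and 31.3. AP2, which restricts AG to the inner whorls, had 24.5, 22.7 and 37.2. SEP4 and AGL6 were also on, at mean FPKM of 20.2 ± 7.3 and 7.49 ± 2.28 (SD, n = 3). In all, 10 of the 16 were on (62.5%, a share near the 55.4% of all protein-coding genes).

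The genes of the inner whorls were unequal. AP3 had FPKM of 17.6, 35.3 and 39.2, whereas its partner PI had 1.67, 0.93 and 0.94, so the members of a protein pair that acts together in petals stood far apart in all 3 libraries. AG had 0.25, 0.17 and 0.34, from 6 to 12 counts. SHP1, a carpel and ovule identity gene, was on at 1.71, 1.09 and 1.54, just over the threshold. STK, an ovule identity gene, and SUP, which bounds the stamen whorl, had no count in any library. CAL, a paralog of AP1, was the member that varied, with 12, 72 and 61 counts in replicates 1, 2 and 3. In bulk tissue, fewer cells of a type and less RNA per cell cannot be told apart, and this holds for every marker below.

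Most listed genes of stamens, pollen, carpels and ovules were not on, whereas 55.4% of all protein-coding genes were on. In the stamen and pollen list 1 of 12 genes was on, VGD1, a pollen tube pectin methylesterase, with FPKM of 14.6, 66.5 and 22.5. TDF1, MYB80, DYT1, DUO1, SPL, A9 and MS1, which act in the tapetum, in sporogenous tissue or in the pollen germ line, were not detected, and the other 4 members (MGH3, AMS, GRP17 and GRP19) had means of at most 0.52. The list summed to FPKM of 15.1, 67.4 and 24.7, nearly all of it VGD1. Whether pollen or anther RNA has a part in the VGD1 level was not tested. Of the other pollen genes MGH3 had 0, 7 and 12 counts and GRP17 had 2, 0 and 17, and the tapetal markers A9 and MS1 were at 0 in all 3 libraries. No stamens were sampled, so whether the undetected genes are on in stamens of stage 12 is not known here, and their zeros do not show that stamen RNA was absent.

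In the carpel and ovule list 2 of 9 were on (22.2%, against 55.4% of all protein-coding genes). NGA1, a growth and style regulator that is also active in leaves and sepals, had FPKM of 15.7, 22.7 and 25.3. SPT, a basic helix-loop-helix regulator of carpel margins and of leaf growth, had 8.25, 4.88 and 12.6. CRC, a carpel and nectary gene, had 1.01, 1.92 and 0.83, and SLR1 had 0.79, 0.53 and 0.73. INO, IND, HEC1, HEC3 and STY1 were not detected.

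Root and seed regulators gave a check on genes that sepals should lack. Of 10 root genes 8 were not detected (WOX5, PLT1, PLT2, RHD6, RSL4, EXPA7, WER and COBL9), against 26.2% of all protein-coding genes. The 2 that were on were SCR, with FPKM of 7.59, 11.4 and 11.1, and SHR, with 1.03, 1.39 and 1.81, both of which also act in shoot tissues. Among 8 seed genes FUS3 alone was on (12.5%, against 55.4% of all protein-coding genes), at FPKM of 5.29, 5.84 and 7.57. OLEO1, ABI3, LEC1, CRU3 and SESA1 were not detected. FUS3 is best known as a regulator of seed maturation, and its value was stable among the libraries, with 148, 155 and 207 counts.

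Meristem and organ boundary genes were also low, with 3 of 19 on (15.8%, against 55.4% of all protein-coding genes). The receptor CLV1 had FPKM of 12.3, 10.6 and 13.0, while its peptide ligand CLV3 was not detected. KNAT1, a class I homeobox gene of stems and meristems, had 1.08, 2.1 and 2.39. BOP2, a boundary co-regulator, had 2.16, 1.58 and 1.54. KNAT6 and CUC3 had means of 1.28 ± 0.33 and 0.56 ± 0.19. LFY, UFO, CUC2, RBE and NUB were not detected, and the stem cell gene WUS had 0, 0 and 7 counts.

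**Figure D3:**
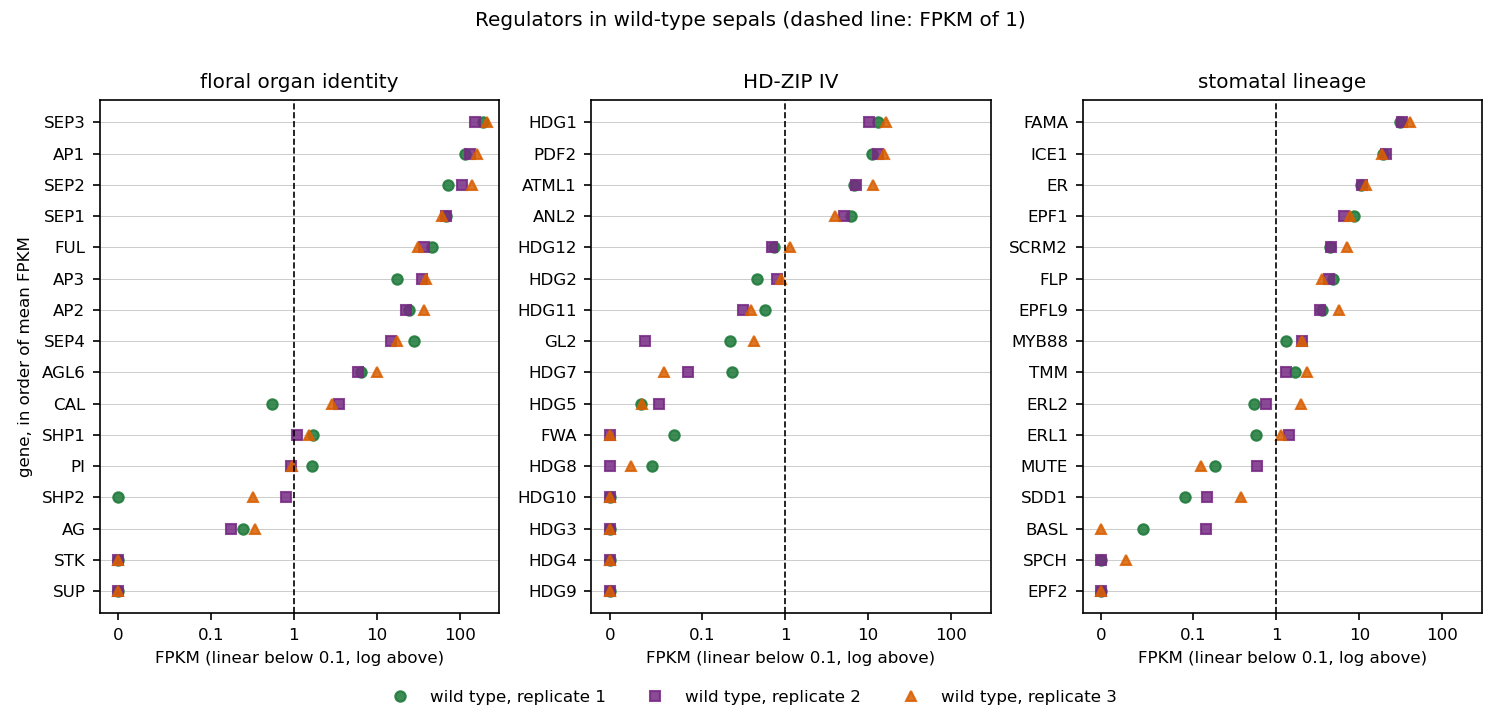
FPKM in each of the 3 wild-type libraries of the members of 3 regulator lists, ordered by mean; the axis is linear below 0.1 and logarithmic above, the dashed line is the threshold of 1, and there is no error bar. SEP3 and AP1 stand above 100 in every library while STK and SUP are at 0, and FAMA stands near 30 to 40 while SPCH has 1 count in all.

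The HD-ZIP IV family, which gives the epidermis its identity, was represented by few members. HDG1 had FPKM of 13.2, 10.2 and 16.6, close to PDF2 and above ATML1. The order of HDG1 and PDF2 was not the same in all libraries, and ANL2, at 6.31, 5.16 and 4.05, was the only one of the 4 that was lowest in replicate 3. These 4 were the members that were on, 4 of 16 or 25%, below the 55.4% of all protein-coding genes. HDG12 lay just under the threshold with a mean of 0.86 ± 0.24. HDG5, FWA, HDG8, HDG3, HDG4, HDG10 and HDG9 were not detected, and GL2, the trichome and root hair member, had 12, 2 and 23 counts.

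Some genes that build the cuticle, the waxy cover of the epidermis, were by contrast abundant. Of 22 epidermis and cuticle genes 17 were on (77.3%, against 55.4% of all protein-coding genes). The median of the mean FPKM over these 22 was 7.31. CER6, which elongates fatty acids for wax, had FPKM of 619, 589 and 476. CER1 and CER3, which together make wax alkanes, had 270, 356 and 315 and 264, 247 and 318. GPAT6, an acyltransferase of flower cutin, had 175, 380 and 262. CYP86A4, a hydroxylase of cutin monomers, was the member that varied most, with 40, 69 and 269 counts. The transcription factor gene SHN2 was not detected.

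GIR1, the gene named in the gir1-1 mutant, stood near the threshold in wild-type sepals. It had 26, 36 and 73 counts, equal to FPKM of 0.91, 1.33 and 2.61, and its paralog GIR2 had 12.5, 5.72 and 4.75. The order of the 2 genes was the same in all 3 libraries, GIR2 above GIR1. The co-repressor TPL, with which GIR proteins interact, had 71.2, 64.1 and 51.9, and TPR4, TPR1 and TPR2 had means of 22.2 ± 2.3, 19.2 ± 3.4 and 13.8 ± 1.5. TPR3 was lowest of the TOPLESS family at 6.004 ± 1.56. Of the 7 genes 6 were on (85.7%, against 55.4% of all protein-coding genes).

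Of 16 genes of the stomatal lineage 9 were on (56.25%, near the 55.4% of all protein-coding genes). FAMA, which promotes guard cell fate at the end of the lineage, had FPKM of 31.0, 32.8 and 40.6. ICE1, a partner of the stomatal helix-loop-helix factors, had 19.1, 21.0 and 18.5, the receptor kinase gene ER had 10.4, 10.7 and 12.1, and the ligand gene EPF1 had 8.61, 6.56 and 7.65. The early genes SPCH, which starts the lineage, BASL, which polarizes its divisions, and EPF2, which limits its entry, were not detected, and MUTE, the middle step, had 3, 9 and 2 counts. All 7 genes of mature guard cells were on, against 55.4% of all protein-coding genes. Among the 7 were the kinase OST1 at 32.6, 37.4 and 48.4 and MYB60 at 11.1, 11.5 and 15.3. The potassium channels KAT1 and KAT2 had means of 11.9 ± 1.4 and 6.14 ± 1.72. The kinase HT1 was at 5.82 ± 1.12. No guard cell gene reached a range of 2 on the log2 scale, which is a 4-fold difference between the highest and the lowest library.

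Trichome genes were mostly low, and 3 of the 13 were on (23.1%, against 55.4% of all protein-coding genes). These were the shared cofactor TTG1 at FPKM of 39.7, 32.3 and 33.3 and the inhibitors TRY at 18.5, 32.04 and 13.2 and ETC3 at 7.21, 20.1 and 17.0. MYB23, an activator, and CPC, an inhibitor, had means of 1.2 ± 0.33 and 0.74 ± 0.27. The activator GL1, the inhibitor ETC2 and the regulator GIS were not detected.

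Organ polarity genes were nearly all on, 15 of 17 (88.2%, against 55.4% of all protein-coding genes). The highest on the lower, abaxial side were YAB2, at FPKM of 38.4, 61.1 and 60.1, and KAN1, at 10.5, 15.2 and 26.6, with YAB3 at 11.5, 9.04 and 23.8. The highest on the upper side was PHV, at 23.4, 17.3 and 26.4. AS1, a leaf regulator, had 14.2, 13.7 and 9.81. KAN4, which acts in ovule integuments, was not detected. YAB1, which is expressed in young organ primordia, had 9, 19 and 46 counts.

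Of the growth regulators 9 of 18 were on (50%, near the 55.4% of all protein-coding genes). TCP13, TCP4, TCP10 and TCP2, which promote the exit from division in leaves and petals, had means of 42.6 ± 11.6, 19.7 ± 4.9, 19.5 ± 13.0 and 11.5 ± 4.2, and the growth-limiting gene DA1 had 10.9 ± 1.5. TCP3 and GRF3 differed by over 4-fold among libraries, with 17, 43 and 98 and with 8, 16 and 53 counts. Exon overlap with another gene covers 82.6% of TCP3. GRF5 and KLU, which prolong division, were not detected.

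In the cell cycle list 17 of 25 were on (68%, against 55.4% of all protein-coding genes). Inhibitors of division stood beside a D-type cyclin at the top. CYCD3;2 had FPKM of 51.0, 52.4 and 57.3. LGO, the inhibitor required for giant cells, had 18.8, 25.3 and 35.6, KRP1 had 18.8, 26.6 and 29.8 and KRP2 had 24.2, 20.2 and 19.3. The kinase CDKA;1 had 25.8, 20.02 and 21.9. LGO and KRP1 were lowest in replicate 1 and highest in replicate 3, and KRP2 was the other way round. Another gene overlaps 40.3% of the exon bases of LGO. The mitotic cyclin CYCB1;2 varied, with 10, 46 and 71 counts, and CYCB1;1 had 12, 11 and 8.

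Vascular genes were high and 8 of 10 were on (80%, against 55.4% of all protein-coding genes). SUC2, the sucrose transporter of phloem companion cells, had FPKM of 340, 340 and 324, a range of 0.07 on the log2 CPM scale. SWEET11 and SWEET12, the exporters that feed it, had 156, 183 and 163 and 68.6, 53.0 and 75.8. APL, a phloem identity gene, had a mean of 26.0 ± 4.9. The xylem protease genes XCP2 and XCP1 had 757, 521 and 2234 counts and 288, 151 and 650 counts, and the vessel regulator VND7 had 9, 7 and 53. These 3 xylem genes were all highest in replicate 3, as were 7 of the 10 vascular genes in all, against 35.4% of all genes tested. SUC2 had the smallest range in the list, and no difference between xylem and phloem genes was tested.

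Variation among the 3 libraries was measured as the range of log2 CPM, scaled with TMM, over the 17597 genes with a mean CPM of at least 1. The median range was 0.56, and 929 genes or 5.28% had a range of at least 2. For 896 of the 929 the exact 95% interval of the fold between the highest and the lowest library, which covers counting error only and takes no account of choosing the extremes, stayed above 2-fold. The count was 441, 500 and 380 when replicates 1, 2 and 3 were left out in turn. A range over fewer libraries cannot be larger, so a rise was not possible. Replicates 1 and 3 were the lowest for 37.8% and 38.9% of the 929 genes and replicate 2 for 23.4%, against 35.2%, 32.6% and 32.3% of all genes tested for replicates 1, 3 and 2. Of the 238 listed genes tested, 32 had a range of at least 2. Over 6 common reference genes the ranges were 0.18 to 0.72, with a median of 0.26, against a median of 0.56 for all genes tested. The ubiquitin gene UBQ10, the highest reference gene, had FPKM of 1631, 1482 and 986. Its range, 0.72, was the largest of the 6 and above the median of all genes tested. ACT2 had FPKM of 228, 183 and 193. TIP41, PP2AA3 and UBC21 had means of 26.4 ± 4.2, 21.2 ± 1.4 and 20.6 ± 1.6.

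The 20 largest ranges belonged to low genes, and 16 of the 20 had a library at 0. AT5G52390, a PAR1 family protein gene, had 8, 0 and 146 counts, at least 47.1-fold higher in replicate 3 than in replicate 2, for which the floor of 3 counts per library was used. FMO GS-OX1 and FMO GS-OX3, which oxidize the sulfur in the side chain of aliphatic glucosinolates, had 57, 109 and 0 and 0, 63 and 11 counts. SWEET9, the sucrose exporter of nectaries, had 63, 9 and 0, and SARD1, a regulator of salicylate synthesis, had 53, 8 and 0. XTH33, a cell wall enzyme gene, had counts in replicate 3 only, 52. The kinase gene WNK3 had 0, 3 and 64 counts.

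FSD1, the iron superoxide dismutase of the plastid, had the most counts of the 20, at 2056, 710 and 25 counts. Its fold of replicate 1 over replicate 3 was 80.0, with an interval of 54.0 to 124. The other 12 were AT4G02950, AT5G15660, the peroxidase gene PER4, AT4G33930, AT5G20370, AT5G48657, the peptide transporter gene OPT2, AT4G12530, the meiosis gene AtSPO22, AT3G48640, AT2G18690 and AT1G74820. The value of AT4G02950 is uncertain, because 62.7% of its 50-base words are shared with other sequence, and for AT4G33930 that share is 12.2%. In the 20 as a set, replicate 1 was highest for 14 and replicate 3 lowest for 16, against 32.9% and 32.6% of all genes tested.

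At higher expression the picture rested on firmer counts. A cutoff of a mean CPM of 100, chosen after the data were seen, left 2040 genes, of which 35 or 1.72% had a range of at least 2. The genes named in this paragraph were likewise chosen after their values were seen. BT2, a BTB and TAZ domain protein gene that responds to nutrients and the time of day, had 11425, 2871 and 394 counts, a fold of 28.2 with an interval of 25.5 to 31.3. ELI3-2, an alcohol dehydrogenase gene induced in defence, had 8934, 3115 and 533, and PUB19, a ubiquitin ligase gene of stress responses, had 2642, 3354 and 241. The metallothionein gene MT1C had 3489, 2462 and 339. EXO and TCH4, which are linked to cell wall growth and to touch, went the other way, with 3685, 1349 and 12104 and 8473, 2368 and 12435 counts. ELIP2, which encodes an early light-induced protein of the thylakoid, had 4284, 7543 and 1210. Replicate 3 was lowest for 24 of the 35 genes, against 47.9% of all 2040.

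**Figure D4:**
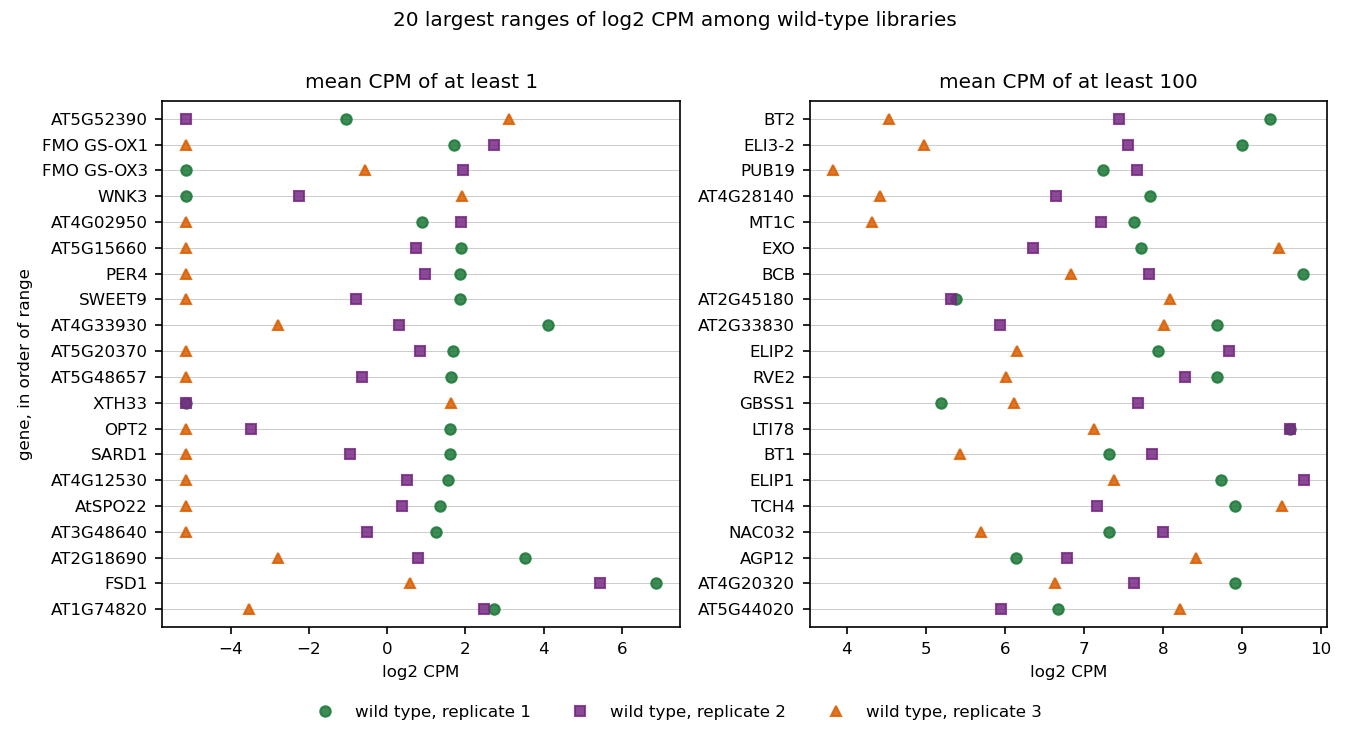
log2 CPM in each of the 3 wild-type libraries of the 20 genes with the largest range, on the left over genes with a mean CPM of at least 1 and on the right over genes with at least 100; symbols are libraries and there is no error bar. On the left 16 of 20 genes have replicate 3 lowest, many of them at 0 counts, and on the right BT2 has 11425 counts in replicate 1 and 394 in replicate 3.

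All 11 clock genes were on, against 55.4% of all protein-coding genes. The clock genes varied more than most genes. In the plant circadian clock the morning factors CCA1 and LHY repress evening genes such as TOC1, ELF4 and LUX, which repress them in turn. CCA1 had FPKM of 81.9, 140 and 55.2, and LHY had 69.8, 136 and 45.2, highest in replicate 2 for both. TOC1 had 93.6, 30.6 and 32.7, ELF4 had 140, 46.8 and 88.1, and PRR5 had 55.1, 21.1 and 40.4, highest in replicate 1 and lowest in replicate 2 for all 3. RVE8, a morning factor related to CCA1, was also highest in replicate 2, at 24.0, 49.4 and 20.6. Over the whole list 7 genes were highest in replicate 1, 3 in replicate 2 and 1 in replicate 3. The shares of all genes tested were 32.9%, 31.6% and 35.4%. No difference between morning and evening genes was tested, and PRR9, another gene of the morning, was highest in replicate 1. PRR9 alone passed a range of 2, with 257, 242 and 56 counts, and 41.1% of its 50-base words occur elsewhere, so its value is uncertain. The median range of the 11 genes was 1.35, against 0.56 for all genes. The labels give continuous light for all plants and no time of collection.

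The promoter windows of 5 clock genes are shown because they hold elements known for morning or evening expression. Each is the 250 bases before the annotated start in TAIR10.1 (RefSeq), 5′ to 3′ along the gene. Capitals mark the G-box CACGTG in CCA1 (chr2:19245341-19245590, plus strand) and LHY (chr1:37872-38121, minus strand), and the evening element AAAATATCT or its reverse complement in TOC1 (chr5:24674713-24674962, plus strand), PRR5 (chr5:8358547-8358796, minus strand) and LUX (chr3:17182792-17183041, plus strand).
CCA1: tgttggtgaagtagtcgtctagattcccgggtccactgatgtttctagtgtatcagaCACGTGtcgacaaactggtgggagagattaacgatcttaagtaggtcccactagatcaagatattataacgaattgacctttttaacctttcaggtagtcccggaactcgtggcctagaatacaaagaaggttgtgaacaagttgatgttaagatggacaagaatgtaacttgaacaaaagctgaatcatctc
LHY: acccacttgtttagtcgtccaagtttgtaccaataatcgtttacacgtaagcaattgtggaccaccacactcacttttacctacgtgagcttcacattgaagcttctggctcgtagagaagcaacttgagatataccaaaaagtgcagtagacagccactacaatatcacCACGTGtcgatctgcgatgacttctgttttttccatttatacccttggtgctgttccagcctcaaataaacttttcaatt
TOC1: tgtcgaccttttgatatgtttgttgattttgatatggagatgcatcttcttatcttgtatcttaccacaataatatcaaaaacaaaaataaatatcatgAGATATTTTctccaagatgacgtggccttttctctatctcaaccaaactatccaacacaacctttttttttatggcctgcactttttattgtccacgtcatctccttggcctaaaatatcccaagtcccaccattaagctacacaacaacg
PRR5: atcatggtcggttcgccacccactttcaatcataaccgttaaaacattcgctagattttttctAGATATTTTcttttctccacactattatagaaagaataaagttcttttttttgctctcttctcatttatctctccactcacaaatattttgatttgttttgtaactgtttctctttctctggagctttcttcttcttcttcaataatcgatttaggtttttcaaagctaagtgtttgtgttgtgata
LUX: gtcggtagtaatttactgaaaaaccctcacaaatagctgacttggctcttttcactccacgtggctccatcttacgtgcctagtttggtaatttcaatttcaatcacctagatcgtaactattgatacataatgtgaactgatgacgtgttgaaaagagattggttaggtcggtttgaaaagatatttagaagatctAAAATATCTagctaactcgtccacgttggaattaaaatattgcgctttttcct
The evening element lies in the windows of these 3 of the 11 clock genes and in 2.36% of 27437 windows. The G-box lies in 5 of the 11 (CCA1, LHY, PRR9, PRR7 and LUX) and in 6.49% of all windows, and the 2 motifs share no letters in LUX. LUX had FPKM of 9.62, 5.999 and 4.03. TOC1, PRR5 and LUX were highest in replicate 1, as were 4 clock genes without the element. A match describes the letters of the window and not the binding of a factor.

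Glucosinolate biosynthesis genes were highest in the same wild-type library. Aliphatic glucosinolates are sulfur-rich defence compounds made from methionine. Of the 12 biosynthesis genes 7 were on (58.3%, near the 55.4% of all protein-coding genes). Of the 12, 9 had a mean CPM of at least 1, and all 9 were highest in replicate 2, against 31.6% of all genes tested. CYP83A1, which acts on the oximes of the core pathway, had FPKM of 13.7, 41.8 and 3.99. BCAT4 and MAM1, which lengthen the methionine chain, had 8.42, 16.2 and 1.33 and 6.99, 14.3 and 1.43. CYP79F1 and CYP79F2, which make those oximes, had 45, 212 and 8 and 26, 86 and 10 counts. These 5 genes had a range of at least 2, that is 55.6% of 9 against 5.28% of all genes, and all 5 were lowest in replicate 3. The list was chosen with earlier results of these data known, so these shares are a description and no test. The 5.28% is not matched for level, and the share was 1.72% at a mean CPM of at least 100. SOT18, SUR1 and the regulator MYB28 had smaller ranges, at mean FPKM of 26.8 ± 8.2, 25.2 ± 8.0 and 12.5 ± 5.2. MYB76 was not detected. Genes of glucosinolate breakdown were all on, 6 of 6, against 55.4% of all protein-coding genes. Besides TGG2 and TGG1 the 6 included the specifier ESP at 105 ± 10, PEN2 at 52.3 ± 11.5 and NSP1 at 15.7 ± 2.4. ESM1, with 254, 1224 and 1207 counts, was the member with a range of at least 2.

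Salicylate defence genes were highest in another library. Of 8 genes 6 were highest in replicate 1, against 32.9% of all genes tested, and 5 had a range of at least 2, against 5.28%. This list too was chosen with earlier results known, and the shares over all genes are not matched for level, so they are a description only. PR2, a glucanase gene, had 726, 82 and 18 counts, PR5 had 292, 64 and 10, PR1 had 37, 16 and 0, and SID2, which makes salicylate, had 286, 49 and 31. WRKY70, highest in replicate 3 with 387, 118 and 505 counts, and PAD4, highest in replicate 2 with FPKM of 9.99, 10.6 and 6.22, had another order. NPR1, the salicylate receptor, had FPKM of 11.8, 7.74 and 10.9.

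Of the genes of the open flower and the nectary 5 of 10 were on (50%, near the 55.4% of all protein-coding genes). Of the 8 tested, 5 had a range of at least 2, against 5.28% of all genes tested. This list too was chosen with earlier results of these data known. MYB57, which with MYB21 acts in jasmonate responses of flowers, had FPKM of 5.06, 36.4 and 6.69, and MYB21 itself had 19.6, 38.8 and 20.6. GA2OX6, a gibberellin oxidase gene, had 23.7, 28.2 and 4.86, JMT, which makes methyl jasmonate, had 7.14, 14.9 and 6.85, and MYB24 had 2.91, 10.5 and 4.2. The nectary genes SWEET9 and CWINV4 and the terpene synthase gene TPS24 were highest in replicate 1 and lowest in replicate 3, with 141, 77 and 14 counts for CWINV4 and 144, 38 and 8 for TPS24. The part of nectary tissue in these values was not tested; CRC, which is also a nectary gene, was highest in replicate 2, at 20, 36 and 16 counts.

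Jasmonate, cold and touch genes completed the variable lists. The jasmonate storage protein and synthesis genes VSP1 and LOX2 had FPKM of 485, 1368 and 1041 and 569, 1348 and 928, and VSP2, LOX3 and JAZ1 had means of 476 ± 210, 406 ± 211 and 193 ± 63. Of 12 jasmonate genes tested 9 were highest in replicate 2, against 31.6% of all genes tested. TAT3, with 103, 71 and 2 counts, and AOC2, with 71, 30 and 12, had a range of at least 2. That is 16.7% of the 12, against 5.28% of all genes tested. MYC2, the main regulator, had 0 counts in all libraries, but 98.5% of its exon bases are overlapped by an annotated gene, so no statement on its level is possible. The cold regulators CBF1 and CBF2 had 168, 322 and 17 and 119, 272 and 20 counts. Among the highest touch and stress genes were ZAT12 and ZAT10, at 107, 82.7 and 57.5 and 100, 54.2 and 30.1, and TCH2 and WRKY40, at means of 47.6 ± 11.3 and 44.5 ± 14.0.

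Flavonoid genes were modest and none of the 5 tested had a range of at least 2. CHI, CHS, FLS1 and F3'H, which make flavonols, had means of 24.3 ± 7.8, 22.6 ± 8.5, 14.3 ± 3.7 and 11.3 ± 2.5. DFR, the first step toward anthocyanins, had 1.32 ± 0.93, and the anthocyanin regulator PAP1 was not detected. F3H was at 0, 1 and 0 counts, but exon overlap covers 93.8% of it.

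**Figure D5:**
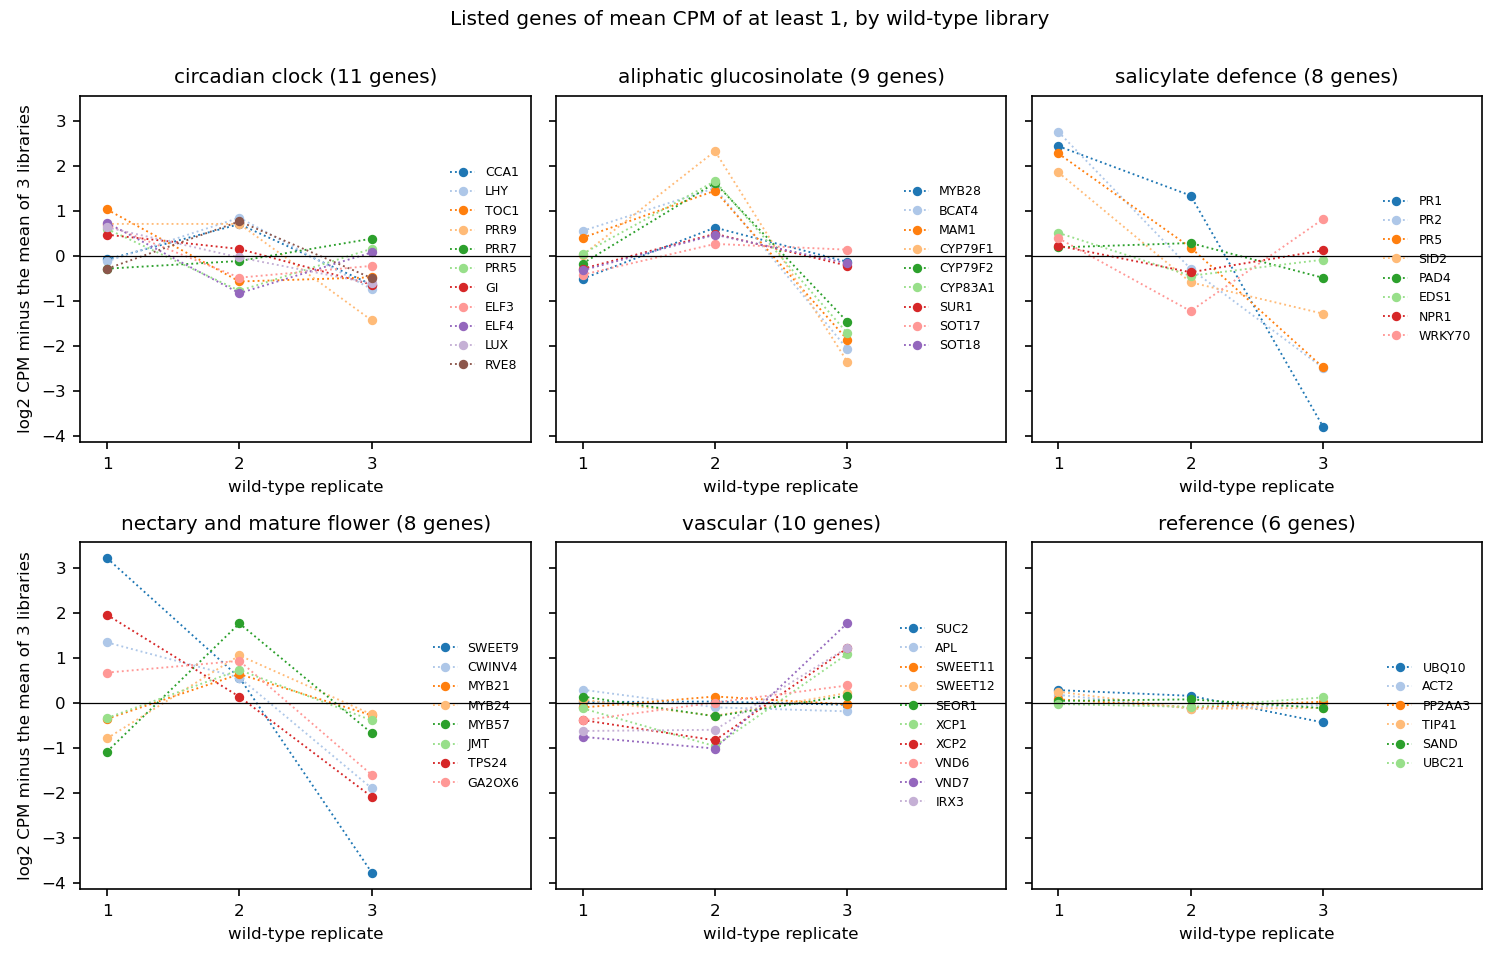
log2 CPM of each listed gene minus its mean over the 3 wild-type libraries, for 6 lists and genes of a mean CPM of at least 1; dotted lines join the values of one gene and replicates have no order. All 9 aliphatic glucosinolate genes are highest in replicate 2, 6 of 8 salicylate genes in replicate 1, and the 6 reference genes have ranges of at most 0.72.

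Of the 20 genes with the largest wild-type range, 14 had a range of at least 2 among the 3 gir1-1 libraries and 10 among the 3 atml1-3 libraries, where 4.86% and 2.89% of all genes tested did. Their median range was 3.49 in gir1-1 and 1.90 in atml1-3, against 0.51 and 0.42 over all genes. These genes are low, with a median mean CPM of 1.57 in wild type against 19.3 over all genes tested, and the part of counting error in the difference was not tested.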

How the data were processed

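RNA-seq libraries of 3 wild-type sepal samples were used, grouped by title. The authors deposited raw read counts and FPKM values per gene for each library, per the file headers; TAIR10 is the build in the submitters' processing notes, and the aligner, counter and use of strand are not given in the sources used here. The deposited FPKM totals were proportional to DESeq2 size factors, and gene lengths equalled the union of exons in TAIR10.1 for 38286 genes. Gene levels were compared by FPKM. CPM was computed from the counts with edgeR 4.0.16 TMM factors over all 9 libraries, in R 4.3.3, with a prior count of 0.5 for log2 values. The range computation was tested on simulated data. No test between groups was made. Exon overlap and 50-base words found elsewhere were computed on TAIR10.1.

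The members and the 27 gene lists (335 entries) were chosen with earlier results of these data known. Genes named are the 4 markers, the 20 highest by mean FPKM, the 5 highest and the undetected members of each list, list members with a range of at least 2, and the 20 largest ranges. Members outside this rule (among them AP3, AP2, PI, AG, SHP1, SEP4, AGL6, GIR1, TPR3, GL2, WUS, MUTE, CYCB1;1, RVE8, LUX, PRR7 and the genes of mean CPM of at least 100) were named after their values were seen. Symbols that the table holds as dates were replaced from the lists by locus. Intervals and floors cover counting error only.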

Additional observations from a re-analysis of the deposited data

How the results depend on the processing

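No paired analysis was possible because the results come from no test between groups. The counts of genes on and of listed regulators on stayed within 1.5 times of 15693 and 199 under all alternatives run (FPKM minimum of 0.5 or 5, mean FPKM, a replicate left out, overlapped genes left out). Of the 20 highest genes, 15 were shared with a ranking by median FPKM, 20 with TPM and with organelle genes left out, and 17 to 18 when a replicate was left out. The top 20 held 9.34% of FPKM but 7.63% of counts, since counts are not divided by gene length; leaving out a replicate gave 8.96% to 9.60%. The number of genes with a range of at least 2 was 929; it was 924, 937 and 866 with DESeq2 size factors, total counts or a prior count of 2. It was 4605 with no filter, 397 at a mean CPM of at least 5, and 35 at 100, where fewer genes are tested. The number was 380 to 500 when a replicate was left out, which cannot raise a range. The 20 largest ranges depend on the filter: 2 of them were among the top 20 at a mean CPM of at least 5, 12 with a prior count of 2 and 4 without replicate 3. With 3 libraries of one group no condition can be tested, and genes under the floor of 0.171 to 0.182 CPM cannot be told from absent at this depth.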

Other observations

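Protein-coding genes with over 50% of their exon bases overlapped by another annotated gene were often at 0. This sets how zeros of such genes in the table can be read. Among 19919 protein-coding genes with no exon overlap, 22.5% had no count in any wild-type library and 53.0% were on. Among the 561 with over 90% of their exon bases overlapped, on either strand, 94.8% had no count and 0.178% were on. In the class above 50% and up to 90%, 550 genes, 40.7% had no count, and in the class above 0% and up to 50%, 6527 genes, 6.496% did. MYC2, F3H and LHCB1.5 fall in the most overlapped class. How the reads of such genes were assigned was not given in the sources used here, and its part in the zeros was not tested. AT2G08665, the lncRNA gene annotated opposite LHCB1.5, was also at 0 in all 3 libraries, so neither gene of that locus had a count.

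By annotated class, protein-coding genes held 98.5% of FPKM and lncRNA genes 0.156%. Of 3480 lncRNA genes 83 were on and 2751 had no count in any wild-type library. Of 3903 pseudogenes 63 were on, and they held 0.0832%.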
